A study of Homo sapiens with 2 samples.

Results

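Chemokines are small secreted proteins that draw immune cells along a gradient. In the liver, hepatocytes and stellate cells release them during injury and infection, and interleukin-1 and tumour necrosis factor are classical inducers that act through the transcription factor NF-kB. Interleukin-1 binds IL1R1, which signals only together with its co-receptor IL1RAP, while IL1R2 binds the cytokine and can recruit IL1RAP but carries no signalling domain and is known as a decoy. The genes described here are the chemokines CXCL8, CXCL1, CXCL2 and CXCL5, which attract neutrophils through CXCR2, CXCL13, which attracts B cells, CCL20, which acts on CCR6, CCL2, which attracts monocytes, and the receptor genes IL1R1, IL1R2 and IL1RAP. They are 10 of the 36601 genes in the files, chosen by their levels, per-cell detection and co-detection in these same libraries, so their differences between cells are given as descriptions without tests.

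The cells were HepaRG, an established human hepatic line that holds hepatocyte-like cells and other cell forms side by side, obtained differentiated from a distributor and kept in culture for 7 days. Both libraries came from cultures given the vehicle, 0.1% DMSO, for 24 h, were made with 10x Chromium 3′ v3.1 chemistry from 10000 loaded cells each, and carry the same biological replicate label, so the spread between them may be technical. The trypsin mix used to dissociate the cells held actinomycin D, which blocks transcription, and anisomycin, which blocks translation. Chemically treated cultures were not analysed here. Replicate 1 kept 4454 cells with a median of 17568 UMIs (unique molecular identifiers, each standing for 1 captured RNA molecule), and replicate 2 kept 4894 cells with a median of 10407. The libraries shared 7 kept cell barcodes.

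Cells were placed in 3 classes. ALB-high cells had at least 50 UMIs of albumin (ALB) per 10000 and numbered 306 in replicate 1 and 407 in replicate 2. Mesenchymal-like cells were the top 20% by COL3A1, SPARC, LUM and PDGFRB and numbered 889 and 967. The remaining cells numbered 3259 and 3520. In ALB-high over remaining cells, 12 of 12 hepatocyte markers at 1 CPM (UMI per 1000000 UMIs of the class or library) or more were at least 2-fold higher in both libraries, ALB itself being fixed by the rule. The other 5 of the 17 listed hepatocyte markers were too low to test. Of 13 mesenchymal markers outside the rule, 10 were at 1 CPM or more; DCN and COL6A3 were at least 2-fold higher in mesenchymal-like than in remaining cells in both libraries, VIM was lower, and COL1A2 and THY1 had at most 4 UMIs in a library. The name mesenchymal-like therefore stands for the rule, not for a checked cell type. Of 14 immune markers, 2 were at 1 CPM or more. Of these, 1 was at least 2-fold higher in ALB-high than in remaining cells in both libraries, as were 5.07% of genes. Summed over the 14 markers, ALB-high cells had 14.7 and 14.8 CPM and remaining cells 11.5 and 11.4 CPM. Among the 12 others the leukocyte gene PTPRC had 10 and 5 UMIs in all kept cells. C1QA and NKG7 had 0, which allows up to 0.0353 CPM in replicate 1 and 0.0526 CPM in replicate 2. Median mitochondrial content was 13.5% and 13.6% of UMIs in ALB-high cells, 8.31% and 8.46% in mesenchymal-like cells and 8.84% and 8.98% in remaining cells, and its part in the differences below was not tested. The ALB-high to remaining ratios of the members among cells of at most 15% are given with their levels.

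CXCL8, CXCL1, CXCL5 and CXCL2 lie in 1 stretch of chromosome 4 in GRCh38 (GENCODE 29). CXCL8 spans chr4:73740506-73743716 on the plus strand, and CXCL1 follows after 125.7 kb at chr4:73869393-73871242, also on the plus strand. CXCL5 lies at chr4:73995642-73998779 and CXCL2 at chr4:74097035-74099293, both on the minus strand. CXCL13 is farther along the same chromosome, at chr4:77511753-77611834. IL1R2 at chr2:101991844-102028544 ends 36.0 kb before IL1R1 at chr2:102064544-102179874, both on the plus strand, and CCL20 is at chr2:227805739-227817564. CCL2 is at chr17:34255218-34257203 and IL1RAP at chr3:190514051-190659750. IL1R1 overlaps an annotated antisense gene, which lies on the other strand. IL1RAP overlaps 3 annotated genes on its own strand, and CXCL1, CXCL2 and CXCL3 are related genes. Counts are uncertain where a read fits more than 1 gene of the same strand or more than 1 related gene. The stretch of 120 bases before the RefSeq start of each clustered CXC gene is shown (RefSeq, GRCh38.p14), because the 4 share the word GGAATTTCC, printed in capitals, a known form of the NF-kB site. For CXCL8, CXCL2 and CXCL5 the RefSeq start lies inside the GENCODE 29 span above, so part of each stretch does too.
CXCL1, chr4:73869273-73869392, plus strand: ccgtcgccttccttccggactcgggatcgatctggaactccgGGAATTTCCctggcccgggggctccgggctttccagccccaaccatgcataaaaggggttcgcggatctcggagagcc
CXCL2, chr4:74099196-74099315, minus strand: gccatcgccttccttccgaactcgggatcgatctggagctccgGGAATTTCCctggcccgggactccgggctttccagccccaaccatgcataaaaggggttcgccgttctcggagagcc
CXCL8, chr4:73740449-73740568, plus strand: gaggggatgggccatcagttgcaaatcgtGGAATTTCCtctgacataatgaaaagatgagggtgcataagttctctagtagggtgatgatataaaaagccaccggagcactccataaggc
CXCL5, chr4:73998678-73998797, minus strand: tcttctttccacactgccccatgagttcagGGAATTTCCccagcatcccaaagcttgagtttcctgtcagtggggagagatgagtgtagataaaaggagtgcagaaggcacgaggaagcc

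The word GGAATTTCC, searched on both strands, occurred in 162 of 35116 RefSeq promoter windows of 300 bases (0.461%). In CXCL1 it stood 78 to 70 bases before the start, in CXCL2 77 to 69, in CXCL8 91 to 83 and in CXCL5 90 to 82. It was not among the letters of the windows of CXCL13, CCL20, IL1R1, IL1R2 or IL1RAP, and CCL2 was not searched. The NF-kB consensus GGGRNNYYCC (R is A or G, Y is C or T, N is any base) was present in 11.3% of windows. It matched those of CXCL1, CXCL2, CXCL5, CCL20 and 1 of 2 windows of IL1R2. The CXCL8 window has the word but not this consensus, because the base before the word is t and not g. The windows of CXCL13, IL1R1 and IL1RAP had no match. The CXCL1 and CXCL2 stretches, aligned by position without gaps, had 81 of 120 bases in common (67.5%), against 38 of 120 for CXCL1 and CXCL8. A match describes the letters only and says nothing of binding in these cells.

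The neutrophil-attracting chemokines CXCL8, CXCL2 and CXCL1 were higher in ALB-high cells, and the interleukin-1 receptors IL1R1 and IL1R2 were lower there. Of 9 members with at least 1 CPM in both libraries, CXCL8, CXCL2 and CXCL1 were at least 2-fold higher in ALB-high than in remaining cells in both libraries, a difference that 5.07% of the 15576 genes tested reached. None was at least 2-fold lower in both libraries, against 7% of genes. The median log2 ratio of the 9 members was 0.95, and that of all genes was -0.16 in each library. CXCL5 was the member not tested, with 1 UMI in all kept cells of both libraries, in a mesenchymal-like cell of replicate 1. In ALB-high cells 0 of 306 and 0 of 407 cells had a CXCL5 UMI, and a floor of 3 counts allows shares of cells with a UMI of up to 0.980% and 0.737%, which says nothing of cells that express the gene below detection.

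CXCL8, a main neutrophil attractant, had 23.1 CPM in ALB-high cells of replicate 1 and 24.2 CPM in those of replicate 2, 5.77 and 6.52 CPM in mesenchymal-like cells, and 4.15 and 4.71 CPM in remaining cells. Both ALB-high values lay above all others, and the ratio of ALB-high to remaining cells was 5.57 in replicate 1 (95% interval 4.55 to 6.79) and 5.14 in replicate 2 (4.10 to 6.43). These intervals cover counting error only and are too narrow for a gene whose UMIs crowd into few cells. CXCL2 had 15.3 and 12.5 CPM in ALB-high cells, 2.19 and 2.82 CPM in mesenchymal-like cells and 3.20 and 3.19 CPM in remaining cells. Its ratio of ALB-high to remaining cells was 4.79 (3.75 to 6.08) and 3.92 (2.90 to 5.27), again with both ALB-high values above all others. For CXCL1, 13.6 and 13.7 CPM in ALB-high cells stood against 4.64 and 5.26 CPM in mesenchymal-like and 4.68 and 4.73 CPM in remaining cells, a ratio of 2.91 in each library. Among cells with at most 15% mitochondrial UMIs the mean log2 ratios of ALB-high to remaining cells were 2.41 for CXCL8, 2.09 for CXCL2 and 1.51 for CXCL1, beside 2.42, 2.12 and 1.54 over all kept cells. The related gene CXCL3 had 6.24 and 5.57 CPM in ALB-high cells and 7.57 and 6.83 CPM in remaining cells, so it lay lower in ALB-high cells in both libraries.

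**Figure D1:**
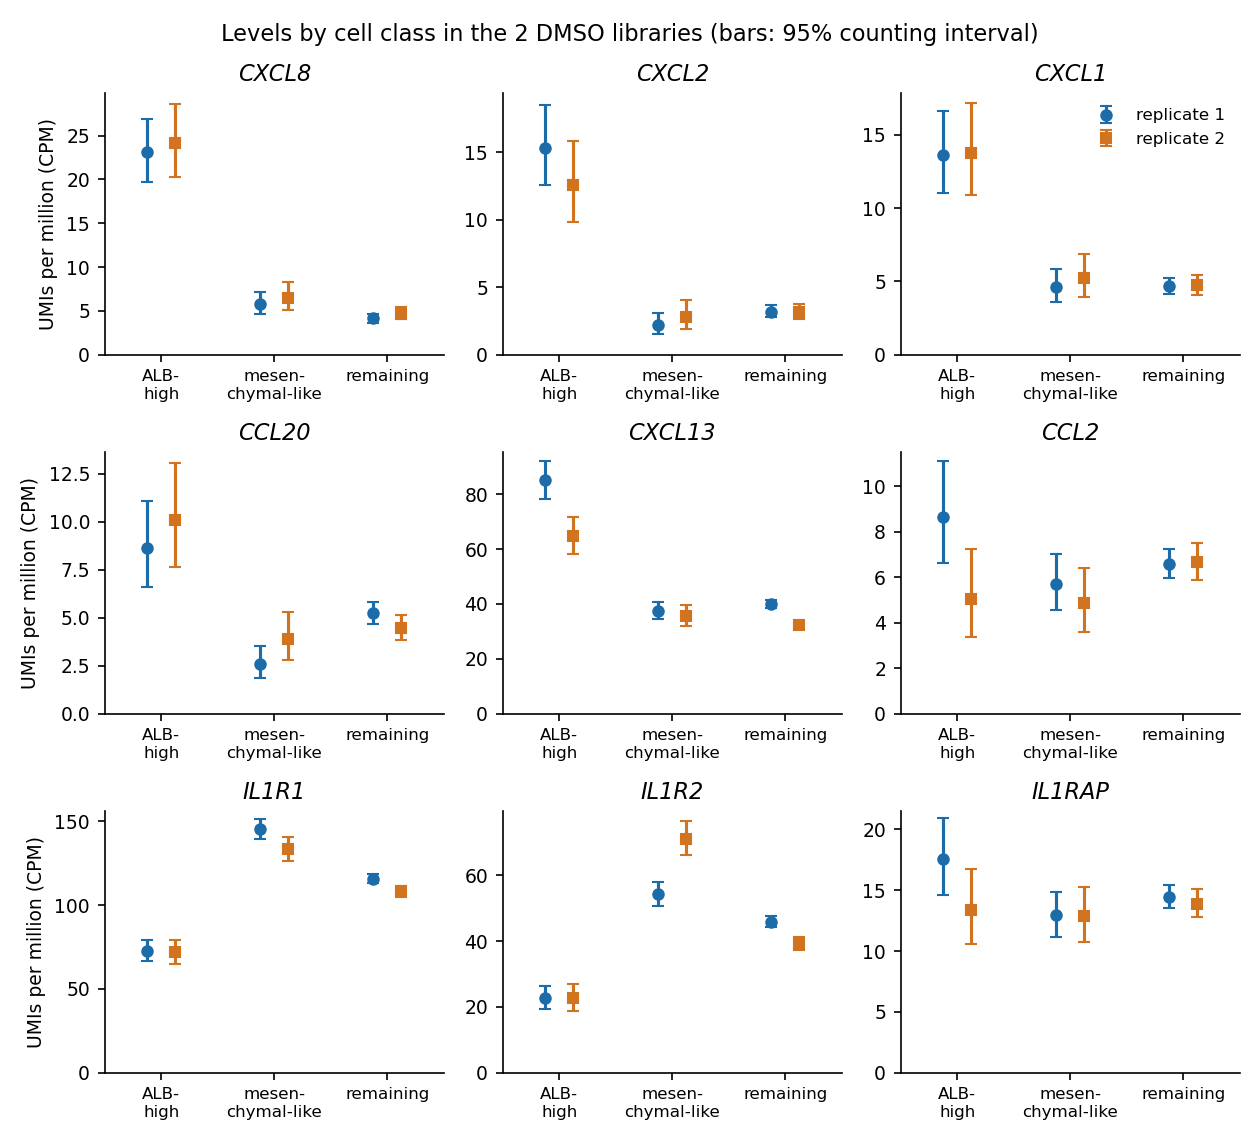
Level of 9 members in CPM (linear axes from 0) in ALB-high, mesenchymal-like and remaining cells, one point per library with its 95% counting interval. CXCL8, CXCL2 and CXCL1 are highest in ALB-high cells of both libraries, while IL1R1 is 72.6 and 71.9 CPM there against 116 and 108 CPM in remaining cells.

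CXCL13, best known from lymphoid follicles, was the chemokine with the highest UMI level. It had 85.0 and 64.7 CPM in ALB-high cells, 37.5 and 35.6 CPM in mesenchymal-like cells and 39.9 and 32.5 CPM in remaining cells. The ratio of ALB-high to remaining cells was 2.13 (1.94 to 2.33) in replicate 1 and 1.99 (1.77 to 2.24) in replicate 2, which left it just short of the 2-fold limit in replicate 2. Leaving out the top cell of each class put this ratio at 1.99 and 1.76. One mesenchymal-like cell held 170 of the 566 CXCL13 UMIs of its class in replicate 1. Without top cells the ratio of mesenchymal-like to remaining cells there was 0.708, against 0.940 with them. CCL20, a chemokine of epithelial cells, had 8.64 and 10.1 CPM in ALB-high cells, 2.59 and 3.89 CPM in mesenchymal-like cells and 5.23 and 4.46 CPM in remaining cells. Its values in ALB-high cells were above all the others, with ratios to remaining cells of 1.65 (1.24 to 2.18) and 2.26 (1.65 to 3.05). Without the top cell of each class the CCL20 ratios were 1.46 and 1.84. CCL2 was the exception among the 6 detected chemokine members, with 8.64 and 5.05 CPM in ALB-high cells, 5.70 and 4.87 CPM in mesenchymal-like cells and 6.60 and 6.66 CPM in remaining cells. Its ratio of ALB-high to remaining cells was 1.31 (0.984 to 1.72) in replicate 1 and 0.758 (0.498 to 1.11) in replicate 2. A single ALB-high cell held 23 of its UMIs in replicate 1, and leaving out the top cell of each class put the ratio there at 0.842. With at most 15% mitochondrial UMIs the mean log2 ratios of ALB-high to remaining cells were 1.10 for CXCL13, 1.17 for CCL20 and 0.31 for CCL2, beside 1.04, 0.95 and -0.01 over all kept cells.

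IL1R1, the signalling receptor, had 72.6 and 71.9 CPM in ALB-high cells, 145 and 133 CPM in mesenchymal-like cells and 116 and 108 CPM in remaining cells. The order ALB-high, remaining, mesenchymal-like held in both libraries, with ratios to remaining cells of 0.627 (0.572 to 0.686) and 0.664 (0.599 to 0.735) for ALB-high cells and of 1.26 and 1.23 for mesenchymal-like cells. The decoy IL1R2 had 22.7 and 22.6 CPM in ALB-high cells, 54.2 and 71.1 CPM in mesenchymal-like cells and 45.9 and 39.2 CPM in remaining cells. It followed the same order, although its ratio of mesenchymal-like to remaining cells was 1.18 in replicate 1 and 1.82 in replicate 2, a larger gap than the counting intervals of 1.09 to 1.28 and 1.66 to 1.98 cover. The co-receptor IL1RAP had 17.6 and 13.4 CPM in ALB-high cells, 12.9 and 12.8 CPM in mesenchymal-like cells and 14.5 and 13.9 CPM in remaining cells. The ALB-high values spanned those of remaining cells and the mesenchymal-like values were the lowest. The ratio of ALB-high to mesenchymal-like cells was 1.36 (1.08 to 1.71) in replicate 1, where the interval left out 1, and 1.04 in replicate 2. Among cells with at most 15% mitochondrial UMIs the mean log2 ratio of ALB-high to remaining cells was -0.54 for IL1R1, -0.80 for IL1R2 and 0.17 for IL1RAP, beside -0.63, -0.90 and 0.11 over all kept cells.

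The makeup of the receptor RNAs thus differed with the class. For each IL1R1 UMI there were 0.242 and 0.186 IL1RAP UMIs in ALB-high cells, 0.0890 and 0.0963 in mesenchymal-like cells and 0.125 and 0.128 in remaining cells. The values did not overlap between classes. IL1R2 UMIs per IL1R1 UMI were 0.313 and 0.315 in ALB-high cells, 0.373 and 0.533 in mesenchymal-like cells and 0.396 and 0.362 in remaining cells. ALB-high cells were lowest by this measure, and the other classes overlapped.

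Between mesenchymal-like and remaining cells, none of the 9 members was at least 2-fold higher or lower in both libraries, against 1.48% of genes higher and 0.982% lower. CXCL8 came out slightly above remaining cells in each library, with ratios of 1.39 (1.08 to 1.78) and 1.39 (1.03 to 1.84), and CCL20 below, with 0.494 (0.345 to 0.690) and 0.872 (0.603 to 1.23). Between ALB-high and mesenchymal-like cells CXCL8, CXCL2, CXCL1 and CCL20 were at least 2-fold higher in both libraries, as were 6.14% of genes, and IL1R2 was at least 2-fold lower, as were 9.62% of genes.

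The contrast did not sit at the albumin limit alone. In cells with fewer than 2 ALB UMIs per 10000, CXCL8 had 4.12 CPM in replicate 1 and 4.36 CPM in replicate 2. Just outside the limit, at 25 to 50 ALB UMIs per 10000, it had 10.6 and 11.2 CPM, just inside, at 50 to 100, it had 14.5 and 16.5 CPM, and at 200 or more it had 40.4 and 34.3 CPM. CXCL2 had 2.82 and 2.74 CPM in the lowest step, 5.47 and 8.27 CPM just outside the limit, 8.10 and 5.20 CPM just inside, and 23.1 and 21.9 CPM in the highest step. CXCL1 showed 4.23 and 4.796 CPM in the lowest step and 20.2 and 17.7 CPM in the highest. Each of these highest-step values exceeded every lower step of its library.

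IL1R1 and IL1R2 ran the other way. IL1R1 had 125 and 118 CPM under 2 ALB UMIs per 10000, 107 and 84.6 CPM just outside the limit, 81.8 and 77.0 CPM just inside, and 53.0 and 60.2 CPM at 200 or more. IL1R2 had 49.3 and 46.2 CPM in the lowest step and 14.7 and 8.27 CPM in the highest, its lowest values in each library. IL1RAP had 14.5 and 13.8 CPM in the lowest step and 16.0 and 17.1 CPM in the highest, with overlapping counting intervals and no steady order in between. CXCL13 did not follow albumin to the top. Its highest step was 100 to 200 ALB UMIs per 10000 in replicate 1, at 110 CPM, and 10 to 25 in replicate 2, at 89.4 CPM, and at 200 or more it had 61.9 and 69.1 CPM. CCL2 had 2.98 and 4.25 CPM at 50 to 100, 2.57 and 2.58 CPM at 100 to 200 and 20.2 and 8.86 CPM at 200 or more, the step of the cell with 23 UMIs. CCL20 had 4.73 and 4.40 CPM in the lowest step and 7.25 and 5.67 CPM at 50 to 100. At 100 to 200 it had 3.86 and 13.4 CPM, and at 200 or more 14.7 and 11.8 CPM, so its steps showed no steady rise in replicate 1.

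**Figure D2:**
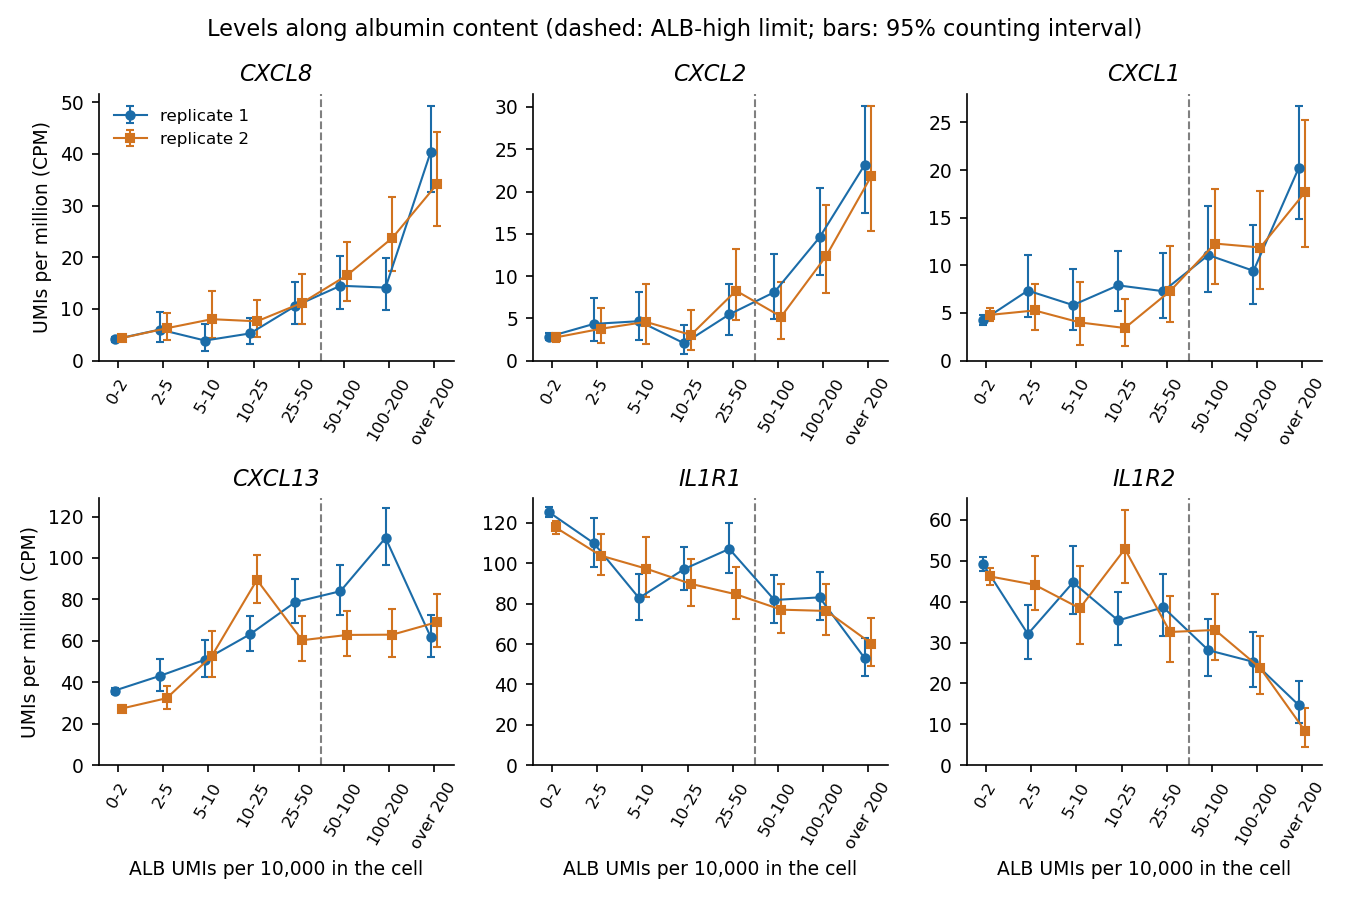
Level of 6 members in CPM against the cell's ALB UMIs per 10000 in 8 steps, for each library with 95% counting intervals; the dashed line is the ALB-high limit of 50. CXCL8 reaches 40.4 and 34.3 CPM in the last step, and IL1R2 is at its lowest there with 14.7 and 8.27 CPM.

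Along the mesenchymal score, in cells under the albumin limit, IL1R1 was highest at the top of the scale. It had 123 and 119 CPM at percentiles 70 to 80, just outside the limit, 125 and 122 CPM at 80 to 90, just inside, and 169 and 146 CPM at 90 to 100. IL1R2 had 48.3 and 45.4 CPM, 51.5 and 64.5 CPM, and 57.4 and 78.7 CPM in the same steps.

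Detection was compared in cells thinned to 4000 UMIs each, since ALB-high cells were deeper (median 20653 and 12441 UMIs) than mesenchymal-like (15663 and 9780) and remaining cells (17821 and 10413.5); 64 and 83 shallower cells were left out. At that depth a CXCL8 UMI was found in 6.56% and 7.71% of ALB-high cells, in 2.83% and 1.90% of mesenchymal-like cells and in 1.53% and 1.33% of remaining cells. CXCL2 was found in 6.89% and 4.73%, 1.02% and 1.37%, and 1.03% and 1.24% of cells in the same class order. CXCL1 was found in 4.59% and 5.72%, 2.15% and 2.54%, and 1.53% and 1.93%. For CXCL13 the shares were 12.1% and 11.7% in ALB-high cells, 4.30% and 5.39% in mesenchymal-like cells and 4.59% and 4.56% in remaining cells. For these 4 genes the Clopper-Pearson 95% intervals of ALB-high and remaining cells lay apart in both libraries with ALB-high higher, as for 7.14% of the 15576 genes, and for no member were they apart with ALB-high lower, as for 10.2% of genes. At 2000 UMIs per cell the intervals lay apart for 3 members. Unthinned, CXCL8 was found in 19.6% and 16.95% of ALB-high cells and in 3.77% and 3.01% of remaining cells.

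IL1R1 was the most widely detected member, in 25.9% and 25.6% of thinned ALB-high cells, 38.7% and 36.8% of mesenchymal-like cells and 32.3% and 31.4% of remaining cells. It was the 1 member whose intervals lay apart between mesenchymal-like and remaining cells in both libraries at 4000 UMIs, higher in mesenchymal-like cells as for 3.53% of genes, but not at 2000 UMIs, at 8000 UMIs or without thinning. IL1R2 was found in 8.52% and 6.72%, 12.9% and 15.5%, and 11.2% and 10.8% of cells in the same class order, and IL1RAP in 4.59% and 3.98%, 4.53% and 4.55%, and 5.65% and 5.00%. A cell with no UMI at this depth may still express the gene. Cells with both IL1R1 and IL1RAP, the pair needed to signal, made up 1.97% and 1.24% of ALB-high cells, 1.13% and 1.90% of mesenchymal-like cells and 1.81% and 1.47% of remaining cells, and these overlapped. Unthinned, IL1R2 was found in 27.1% and 22.1% of ALB-high and 25.4% and 18.7% of remaining cells, the reverse of the thinned order. Its positive cells held 1.93 and 1.44 UMIs on average in ALB-high and 3.49 and 2.44 in remaining cells. Unthinned shares of IL1R1 were 69.9% and 53.6% against 70.1% and 55.9%, and of IL1RAP 25.8% and 15.0% against 21.3% and 13.9%.

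Ambient RNA was left in the counts, and no class here is known to lack these genes. ALB cannot serve as a yardstick, because its low level outside ALB-high cells is fixed by the class rule. It had 18733 and 17355 CPM in ALB-high cells and 311 and 361 CPM in remaining cells. The latter were 1.66% and 2.08% of the ALB-high level, and the share was 0.469% and 0.691% in mesenchymal-like cells. The levels of CXCL8 in remaining cells were 18.0% and 19.5% of those in ALB-high cells, those of CXCL2 were 20.9% and 25.5%, and those of CXCL13 were 47.0% and 50.1%. The part of ambient RNA in these levels was not tested.

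A few cells held much of the chemokine RNA. The top 1% of cells by CXCL13 held 52.6% of its UMIs in replicate 1 and 47.3% in replicate 2. For CXCL8 the top 1% held 49.5% and 51.6%, for CCL20 46.4% and 49.5%, for CXCL1 41.1% and 36.4%, for CXCL2 31.6% and 37.1% and for CCL2 33.5% and 29.5%. The receptor genes had 25.8% and 23.6% for IL1R2, 12.6% and 14.8% for IL1RAP and 8.43% and 8.79% for IL1R1. These shares also depend on how rare a gene is, so they are not compared between genes of different level.

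CXCL13 stood apart in the number of UMIs per positive cell. It had at least 5 UMIs in 161 of 421 positive cells in replicate 1 and in 131 of 405 in replicate 2, and these cells held 88.8% and 77.4% of its UMIs. Of the 161 cells, 29 were ALB-high, 24 mesenchymal-like and 108 remaining cells, and of the 131 cells the classes had 22, 27 and 82. The highest CXCL13 cell of replicate 1 was a remaining cell of 18716 UMIs with 175 UMIs of the gene, 12 of IL1R2, 4 of IL1R1 and none of the other chemokines listed here. CXCL8 had at least 5 UMIs in 28 of 232 positive cells in replicate 1 and in 14 of 209 in replicate 2. One ALB-high cell of replicate 1, with 48697 UMIs in all, held 20 UMIs of CXCL8, 23 of CCL2, 9 of CCL20 and 6 of CXCL1. In replicate 2 the highest CXCL8 cell was a remaining cell with 16 CXCL8, 5 CCL20 and 2 CCL2 UMIs, and the highest CCL20 cell was ALB-high with 13 CCL20, 7 CXCL8 and 2 CXCL1 UMIs. The highest IL1R2 cell, a remaining cell of replicate 1, had 91 IL1R2 and 12 IL1R1 UMIs and none of the 6 detected chemokines.

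**Figure D3:**
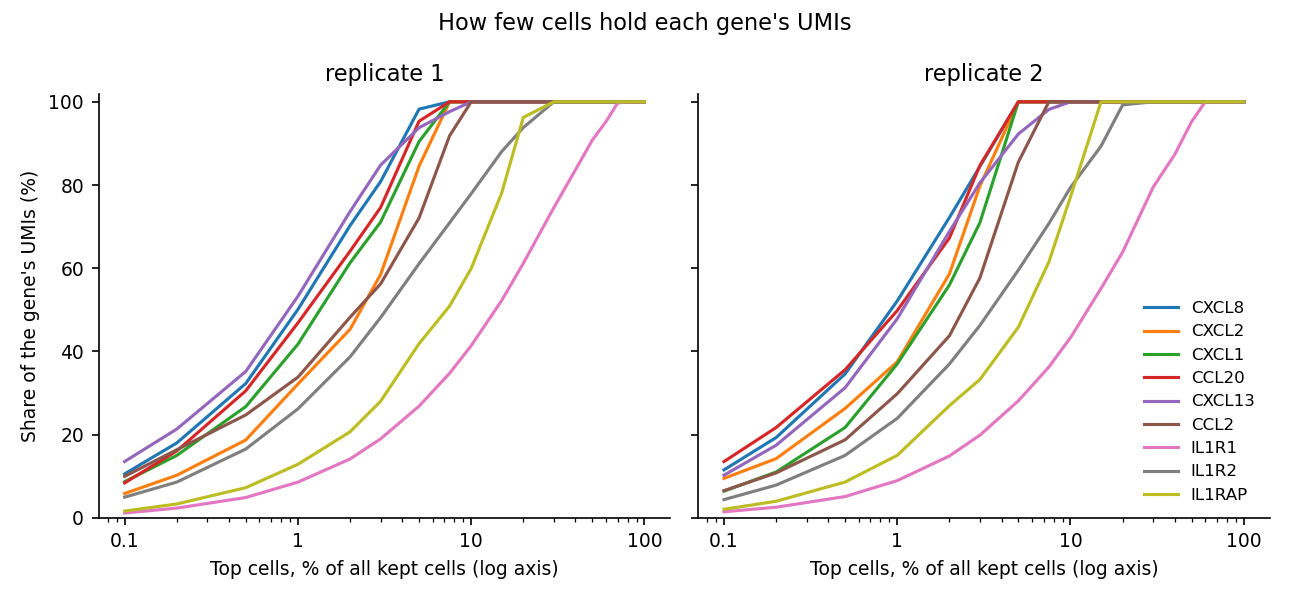
Share of a gene's UMIs (%) held by its top cells, as a percentage of all kept cells on a log axis, for 9 members in each library. At 1% of cells, here rounded to the nearest whole cell and not down as in the text, the CXCL13 line reaches 53.3% and 47.8%, and the IL1R1 line 8.58% and 8.94%.

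Of 15 chemokine pairs, 4 were found in the same cells more often than their separate shares give, in both libraries. All 4 were among CXCL1, CXCL2, CXCL8 and CCL20, but not every pair of these genes was. In thinned cells, 7 of 36 member pairs were above the product of their shares with a 95% interval over 1 in both libraries, as were 0.247% of the 121298100 pairs of the 15576 genes tested, a background that was not matched on how often genes are detected. CXCL1 and CXCL8 were found together in 13 cells of replicate 1, where 1.76 would come from the shares, and in 14 cells of replicate 2, where 2.25 would, ratios of 7.40 (3.94 to 12.7) and 6.22 (3.40 to 10.4). The pair CXCL8 and CCL20 was seen in 8 and 8 cells, ratios of 5.75 and 5.47, CXCL1 and CCL20 in 7 and 8 cells, ratios of 5.77 and 4.56, and CXCL2 and CCL20 in 4 and 6 cells, ratios of 4.29 and 5.20. These cell numbers are small. CXCL1 with CXCL2 and CXCL2 with CXCL8 had an interval above 1 in replicate 1 only. Their ratios in replicate 2 were 1.69 (0.348 to 4.93) and 2.70 (0.736 to 6.92), from 3 and 4 cells.

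With the expectation taken within each class, the CXCL1 and CXCL8 ratio was 5.89 and 4.49, and that of CXCL8 and CCL20 was 5.16 and 4.44. In ALB-high cells alone CXCL1 and CXCL8 were found together in 5 and 8 cells, ratios of 5.45 (1.77 to 12.7) and 4.51 (1.95 to 8.89). In remaining cells alone they were found together in 7 and 2 cells, with ratios of 9.34 (3.75 to 19.2) and 2.25 (0.272 to 8.12), so the excess was not detectable at this depth in replicate 2. CXCL8 and CCL20 kept an interval above 1 in remaining cells of both libraries, with 5 and 4 cells and ratios of 6.81 and 5.68. Without thinning, 14 pairs had intervals above 1 in both libraries, and CXCL8 and CCL2 were among them with 46 and 40 cells and ratios of 2.32 and 3.16.

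Of its pairs with the other members in thinned cells, CXCL13 had the highest ratios with IL1R2. CXCL13 and IL1R2 were found together in 79 and 73 thinned cells, ratios of 3.12 (2.47 to 3.89) and 2.51 (1.97 to 3.15), and in remaining cells alone the ratios were 3.33 and 2.82. Of the cells with a CXCL13 UMI, 35.6% and 28.5% also had an IL1R2 UMI. CXCL13 and IL1R1 had ratios of 1.43 and 1.31, and the receptors IL1R1 and IL1R2 were together in 249 and 274 cells, ratios of 1.504 (1.32 to 1.70) and 1.57 (1.39 to 1.76). In thinned cells the intervals of CXCL13 with each of the other 5 detected chemokines included 1 in both libraries, at ratios of 2.17 and 1.32 with CXCL1, 1.26 and 1.98 with CXCL8, and 0.360 and 0.380 with CCL2. Every pair of IL1RAP with another member had an interval including 1 in both libraries, and the ratio of IL1R1 and IL1RAP was 0.951 and 0.997. At least 3 of the 6 detected chemokines were present in 11 thinned cells of replicate 1 and 8 of replicate 2, where 1.02 and 1.18 would come from independent shares over all classes. Taken by class, there were 4 and 5 such ALB-high cells where 0.931 and 1.06 would come from the shares. Remaining cells had 7 and 3 where 0.483 and 0.552 would, and mesenchymal-like cells had 0 and 0.

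**Figure D4:**
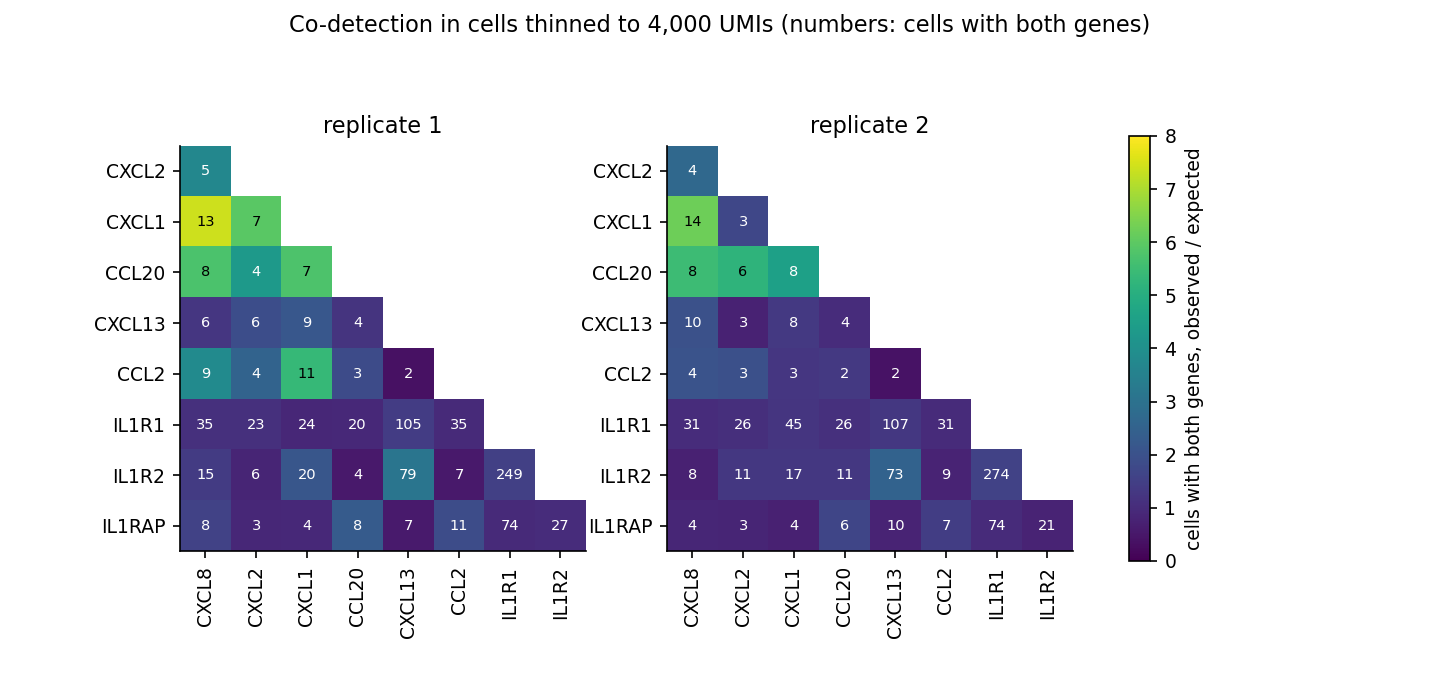
Cells with both genes of a pair divided by the number expected from the product of the genes' shares (colour), in cells of each library thinned to 4000 UMIs; the printed numbers are the cells with both genes. The brightest square is CXCL1 with CXCL8 (7.40 and 6.22), and the IL1RAP row lies between 0.589 and 2.30.

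Genes most like each member over cells were named by Pearson's r of ln(1 + UMIs per 10000), computed within each library of 4454 and 4894 cells against 12139 genes found in at least 5% of cells. The cells share a library and a scaling to total UMIs, and such correlations in sparse counts are weak. CXCL13 was most like LBP, the lipopolysaccharide-binding protein (r = 0.253 and 0.254), SERPINA3 (0.279 and 0.228) and ORM1 (0.274 and 0.229), all made by the liver in the acute phase, then IL1R2 (0.265 and 0.194) and ADRA1A (0.245 and 0.207). IL1R2 was most like LBP (0.361 and 0.251), the carboxylesterase CES1 (0.325 and 0.271), S100A8, ZNF385B and the metallothionein MT1X. IL1R1 was most like ANGPT1 (0.317 and 0.247), an angiopoietin, IL1R2 (0.298 and 0.224), FOXO1, FKBP5 and POT1-AS1. For CCL2 only TNFAIP3, an NF-kB target that restrains the pathway, reached 0.1 in both libraries (0.178 and 0.117), and for IL1RAP no gene did. CXCL1, CXCL2, CXCL8 and CCL20 were in fewer than 5% of cells of at least 1 library and were not ranked.

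The rest of the pathway was read from 10 lists of 131 genes, chosen with earlier results of these libraries known. The interleukin-1 ligands IL1A and IL1B had 24 and 12 UMIs and 27 and 10 UMIs in all kept cells, too few to compare. IL18, a related cytokine, had 58.4 and 58.5 CPM in ALB-high cells, 34.8 and 34.6 CPM in mesenchymal-like cells and 44.7 and 42.3 CPM in remaining cells. Of 6 other receptor-family genes tested, only IL1RAPL1 passed 2-fold in both libraries. Of all genes, 12.1% did so between ALB-high and remaining cells and 2.47% between mesenchymal-like and remaining cells. IL1RAPL1 had 0.709 and 1.57 CPM in ALB-high cells and 22.7 and 16.3 CPM in mesenchymal-like cells, against 5.18 and 3.24 CPM in remaining cells. Of 15 genes that relay the interleukin-1 signal, from the adaptor MYD88 to the IKK kinases, none was at least 2-fold apart in either comparison. The shares of all genes were again 12.1% and 2.47%, so few such genes would be called among 15. The median log2 ratio of the relay genes was -0.04 for ALB-high over remaining cells. The adaptor TAB2 had 49.2 and 50.5 CPM in ALB-high cells and 78.0 and 75.4 CPM in remaining cells.

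Among 17 NF-kB subunits, inhibitors and targets, NFKBIZ, ICAM1 and SOD2 were at least 2-fold higher in ALB-high than in remaining cells in both libraries, against 5.07% of all genes, and none was lower. The coactivator NFKBIZ had 28.9 and 30.6 CPM in ALB-high cells and 6.76 and 7.95 CPM in remaining cells. The adhesion molecule ICAM1 had 54.0 and 54.5 CPM in ALB-high cells and 16.2 and 18.7 CPM in remaining cells. SOD2, a mitochondrial superoxide dismutase, had a log2 ratio of 2.10. The inhibitor NFKBIA had 81.8 and 93.6 CPM in ALB-high cells and 79.1 and 80.2 CPM in remaining cells, and BIRC3 had a log2 ratio of -0.03, so the listed genes did not all differ alike. The list's median log2 ratio was 0.38 for ALB-high and -0.24 for mesenchymal-like over remaining cells.

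Acute phase genes differed most, with 9 of 9 tested at least 2-fold higher in ALB-high than in remaining cells in both libraries, against 5.07% of all genes, and a median log2 ratio of 3.35. Many of them are also plain hepatocyte genes. The other 3 of the 12 listed, LCN2, CRP and HAMP, were too low to test. Of the other chemokines, CX3CL1 had 19.98 and 18.97 CPM in ALB-high cells and 4.09 and 4.44 CPM in remaining cells, and CCL15 had 8.08 and 6.27 CPM in ALB-high cells and 0.684 and 1.17 CPM in remaining cells. PPBP and CCL26 were at least 2-fold lower, with 0.142 and 0.174 CPM and with 0.283 and 0.174 CPM in ALB-high cells, where remaining cells had 1.46 and 1.00 CPM and 1.26 and 1.78 CPM. These ALB-high values lay below the floor of 3 counts, 0.425 and 0.522 CPM, so the size of the difference is uncertain. ACKR3, a receptor that takes up chemokines without G-protein signalling, had 14.2 and 17.2 CPM in ALB-high cells, 52.6 and 52.6 CPM in mesenchymal-like cells and 54.4 and 53.5 CPM in remaining cells. The signalling receptors of the members, picked out after their values were seen, were scarce in all kept cells, with 0 and 0 UMIs of CXCR1, 7 and 6 of CXCR2, 64 and 44 of CXCR5, 0 and 0 of CCR2 and 3 and 0 of CCR6. Of 10 immediate early genes, which dissociation is known to raise, FOS and FOSB were at least 2-fold higher in ALB-high than in remaining cells in both libraries, against 5.07% of all genes, and the list's median log2 ratio was 0.61 beside -0.16 for all genes; its part in the chemokine levels was not tested.

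**Figure D5:**
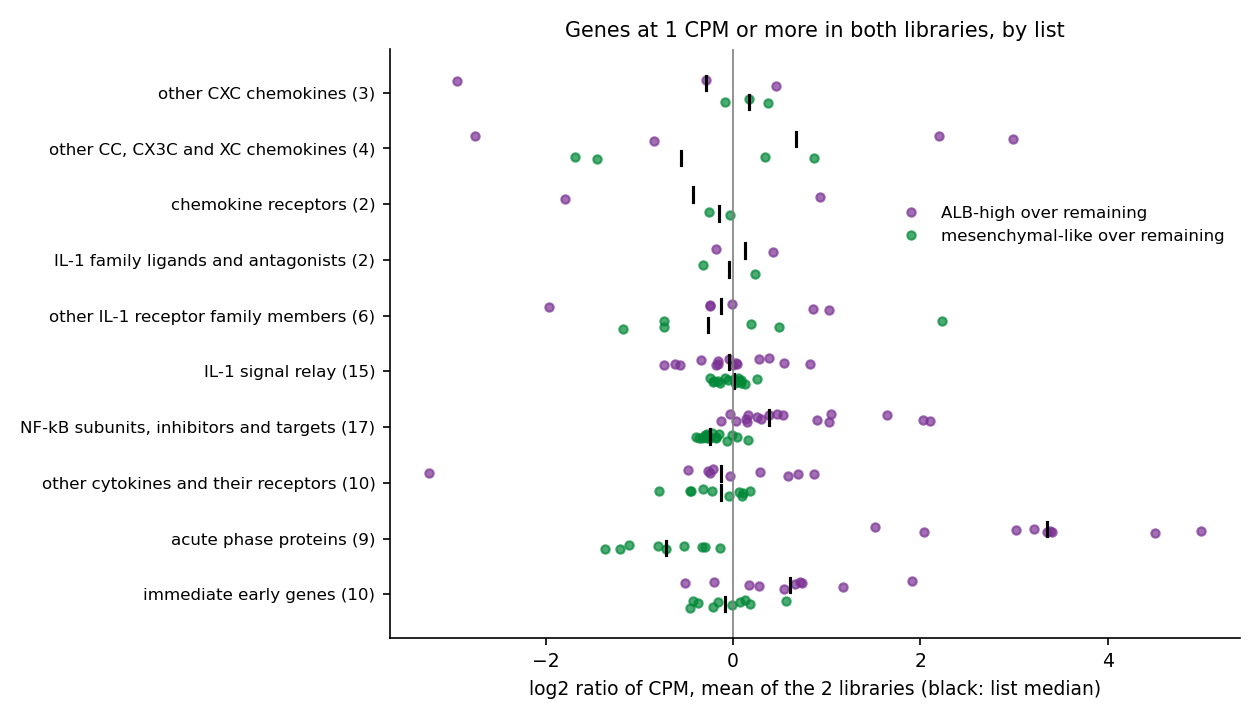
Log2 ratio of CPM for each list gene at 1 CPM or more in both libraries (mean of the libraries), ALB-high over remaining and mesenchymal-like over remaining cells, with the list median as a black bar and the number of genes in brackets. The acute phase genes lie farthest right for ALB-high cells (median 3.35), and the signal relay genes lie around 0 (median -0.04).

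Proliferating cells, the top 20% of each library by 11 cell cycle markers, had less of most members than other cells. They made up 8.17% and 5.65% of ALB-high cells, 16.6% and 17.8% of mesenchymal-like cells and 22.0% and 22.3% of remaining cells. CXCL13, CXCL1 and CXCL8 were at least 2-fold lower in proliferating cells in both libraries, as were 3.12% of genes (5.44% in either direction), and the median log2 ratio of the 9 members was -0.98 beside -0.05 for all genes. CXCL13 had 13.01 and 18.7 CPM in proliferating cells and 53.2 and 41.8 CPM in other cells, and CXCL1 had 2.42 and 2.19 CPM in proliferating cells and 6.39 and 6.85 CPM in other cells. IL1R1 had 67.3 and 63.1 CPM in proliferating cells and 134 and 124 CPM in other cells, just short of the limit in both libraries. IL1RAP was closest, with 12.8 and 12.4 CPM in proliferating cells and 15.0 and 14.05 CPM in other cells. Without the proliferating cells, an alternative added after the data were seen, the mean log2 ratio of ALB-high to remaining cells was 2.20 for CXCL8, 2.00 for CXCL2, 1.32 for CXCL1, 0.83 for CXCL13, -0.83 for IL1R1 and -1.08 for IL1R2.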

How the data were processed

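The deposited values are UMI counts per gene and barcode, made by the authors with Cell Ranger 7.0.0 per the file headers; STAR and GRCh38 are named per the submitters' processing notes, and the annotation release, intron handling and barcode calling were not given in the sources used here. Barcodes with at least 500 genes, 1000 UMIs and at most 25% mitochondrial UMIs were kept, from 85475317 and 57246647 UMIs in 4591 and 4998 barcodes. Doublets and free RNA were not removed. The 12 antibody features held 0 UMIs.

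Cells that met both class rules (2 and 12) counted as ALB-high. The mesenchymal score was the mean of ln(1 + UMIs per 10000). Counts were added up within each class of a library and given per 1000000 UMIs (CPM) with exact Poisson 95% intervals; ratios had exact conditional binomial intervals and shares Clopper-Pearson intervals, all of which cover counting error only. Genes at 1 CPM or more over all kept cells of both libraries were tested against a 2-fold limit in both libraries; this is a description, since the classes were made from the same counts and no test was run. Thinning used 1 random draw. Members and lists were chosen with earlier results of these data known. All members are named; the rule also allowed the top 4 genes of a list by level, those past 2-fold and the 5 genes most like a member, of which some are named. Positions came from GENCODE 29, which matched 94.6% of gene IDs. Fold calls, ratio intervals and the co-detection ratio were checked on simulated data. Thinning was checked on cells of replicate 2, for the number of UMIs left in each cell. Software was Python 3.11.15, numpy 2.4.6, pandas 2.3.3, scipy 1.17.1, matplotlib 3.10.9 and R 4.3.3 with edgeR 4.0.16, used for TMM factors alone. Alternatives changed the class limits, barcode filters, normalization, thinning depth, the CPM and fold limits, and left out libraries or cells.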

Additional observations from a re-analysis of the deposited data

How the results depend on the processing

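No alternative turned round the direction of a called member. CXCL8, CXCL2 and CXCL1 kept mean log2 ratios of ALB-high to remaining cells of 2.20 to 2.54, 1.88 to 2.42 and 1.32 to 1.66 over 15 alternatives, and IL1R1 and IL1R2 stayed between -0.83 and -0.51 and between -1.21 and -0.71. CXCL13 ran over 0.83 to 1.23, CCL20 over 0.69 to 1.18 and CCL2 over -0.60 to 0.39. Of 270 recomputed levels 63 moved by more than the spread between the libraries, of 252 detection differences 94 and of 252 co-detection ratios 52; a spread over 2 libraries is itself uncertain.

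Members at least 2-fold lower in ALB-high cells numbered 0, 1 (IL1R2) with an albumin limit of 100, and 2 (IL1R1 and IL1R2) at a 1.5-fold limit, where 5 were higher (CXCL13 and CCL20 beside the main 3). Genes higher and lower in ALB-high cells numbered 789 and 1091, against 337 and 577 at 10 CPM or more, 1696 and 4718 with no filter and 1499 and 2564 at 1.5-fold. For mesenchymal-like cells the 231 and 153 genes became 71 and 41, 1069 and 1890, and 555 and 379; genes lower numbered 298 with the top 10% and 62 with the top 30% of the score. Members with detection apart between ALB-high and remaining cells numbered 4, and 3 at 2000 UMIs. Members with detection apart between mesenchymal-like and remaining cells numbered 1, and 0 at 2000 UMIs, at 8000 UMIs, unthinned or without proliferating cells. Pairs above expectation numbered 7, also 7 at 8000 UMIs, and 14 unthinned.

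With 1 library left out in turn, so that a difference had to hold in 1 library instead of both, members higher in ALB-high cells numbered 4 each time (CXCL13 joined in replicate 1 and CCL20 in replicate 2) and members lower 0 to 1 (IL1R2 in replicate 1). Genes higher ran from 276 to 360 and genes lower from 237 to 305 in mesenchymal-like cells, with members lower from 0 to 1 (CCL20 in replicate 1), members with detection apart from 1 to 2, and pairs above expectation from 7 to 12. The genes named as most like a member numbered 16, and 17 in remaining cells alone, of which 12 were shared. Every class ratio was taken within a library, so the contrasts are already matched by library, and no test was run that a block could change. Members near 5 CPM gave a UMI in few thinned cells, so differences of a few cells are not detectable.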

Other observations

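Of 10 other cytokine and receptor genes tested, 1 was at least 2-fold apart between ALB-high and remaining cells in both libraries, against 12.1% of all genes. IL32, a cytokine raised by NF-kB in many cell types, had 541 and 556 CPM in ALB-high cells, 221 and 218 CPM in mesenchymal-like cells and 302 and 301 CPM in remaining cells, a log2 ratio of ALB-high to remaining cells of 0.86. The gene past the limit was IL11, with 0.142 and 0.696 CPM in ALB-high cells, 2.06 and 1.46 CPM in mesenchymal-like cells and 2.61 and 3.41 CPM in remaining cells. Its ALB-high value in replicate 1 lay below the floor of 3 counts, 0.425 CPM. IL6ST, the shared signalling chain of the IL6 and IL11 receptors, had 207 and 208 CPM in ALB-high cells and 174 and 166 CPM in remaining cells, and the growth factor CSF1 had 71.4 and 75.7 CPM in ALB-high cells and 88.3 and 85.7 CPM in remaining cells. IL6 itself, picked out after its values were seen, had 21 and 18 UMIs in all kept cells.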
